A study of Mus musculus with 5 samples.

Results

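The genes that mark lymphocytes were followed in bulk RNA-seq of mouse prostate tumors. They were 38 of the 24527 genes in the count table and were chosen by symbol as genes of T cells, immune checkpoints, cytotoxic granules, natural killer (NK) cells, B cells and plasma cells. All 38 had a row. All 5 mice were TripleTg animals, which carried a human HGF transgene (hHGFtg) active in all tissues. One copy of a human MET transgene (H11 hMET/+) sat behind a stop cassette, and one Ctnnb1 allele, Ctnnb1 L(Ex3)/+, gives stabilized β-catenin once its exon 3 is removed. PB Cre4, a Cre under the probasin promoter of prostate epithelium, switched on the last pair. Castration was done at 4 months of age in 3 mice, the 2 others were left intact, and tumors of all were analyzed at 8 months. Mice are numbered by the replicate number of their labels. The methods describe a mixed background of C57BL/6 and C3H SCID strains. The SCID allele of Prkdc, when homozygous, leaves mice almost without mature T and B cells, and the Prkdc genotype of each mouse is not given in the sources used here.

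B cells and plasma cells gave the clearest difference between the groups. In every castrated sample each of their 5 genes was above both intact samples, with log2 fold changes between 4.11 and 4.77. Over all 33 members tested, 6 were higher without overlap of the groups, beside 17.0% of all tested genes. Most T cell members were also higher on average in castrated samples, but among those the groups overlapped in all except Cd4. The cytotoxic genes Gzmb and Gzmk had most of their counts in intact mouse 2. None of these differences passed the adjusted threshold, as 0% of the 14612 genes in the test reached an adjusted p under 0.05 with a log2 fold change beyond 1 in either direction (edgeR's quasi-likelihood test, Benjamini-Hochberg adjusted).

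B cells carry an antigen receptor that signals through the paired proteins CD79A and CD79B, and plasma cells, which develop from them, secrete antibody. T cells recognise antigen through a receptor that signals through the CD3 chains, and divide broadly into CD4 helper and regulatory cells and CD8 killer cells. NK cells share with CD8 cells the granule proteins perforin and granzymes, with which both kill target cells. The antigen receptor constant region genes, which would mark these cells most directly, were not analysed here. Values are given as CPM, counts scaled to a common library size with the trimmed mean of M-values (TMM), and compare one gene between samples. Comparisons between genes use TPM, which also divides by gene length. Total counts were 28015507, 18951782 and 20492061 for castrated mice 1, 2 and 3, and 21560355 and 22853501 for intact mice 1 and 2. A gene with 3 counts, taken as the floor of detection, had a CPM between 0.105 and 0.161. Over all genes, castrated mouse 1 was nearer to intact mouse 1, with a chi-square per gene of 137, than to castrated mice 2 and 3, with 230 and 271. In bulk tissue, fewer cells of a type and less RNA per cell cannot be told apart.

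A few members stand for the patterns described here, and the DNA around their start sites is shown so that the regulatory letters of lymphocyte genes can be read beside their counts. Each window holds 250 bases before to 50 bases after the start and is taken from RefSeq on build GRCm38.p6, read 5′ to 3′ on the gene's own strand. Of the 38 members, 28 had such a window, with 33 windows in all. Capitals mark AGGAAGT, a sequence bound by ETS factors, or TGTGGTT, a sequence bound by RUNX factors, on either strand. The window of Jchain, the plasma cell gene with the highest level, is chr5:88527848-88528147 on the minus strand. For Cd79a, the B cell receptor subunit, it is chr7:24897247-24897546 on the plus strand. That of Gzmb, a granzyme that was highest in an intact sample, is chr14:56262285-56262584 on the minus strand. Il7r, a cytokine receptor gene of resting lymphocytes, has the window chr15:9529827-9530126 on the minus strand.
Jchain: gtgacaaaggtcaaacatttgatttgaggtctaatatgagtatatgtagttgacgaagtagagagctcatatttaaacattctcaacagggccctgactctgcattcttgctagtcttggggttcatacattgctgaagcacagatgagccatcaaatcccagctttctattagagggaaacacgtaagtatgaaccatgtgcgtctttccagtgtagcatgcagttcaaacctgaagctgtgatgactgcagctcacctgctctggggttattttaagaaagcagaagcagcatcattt
Cd79a: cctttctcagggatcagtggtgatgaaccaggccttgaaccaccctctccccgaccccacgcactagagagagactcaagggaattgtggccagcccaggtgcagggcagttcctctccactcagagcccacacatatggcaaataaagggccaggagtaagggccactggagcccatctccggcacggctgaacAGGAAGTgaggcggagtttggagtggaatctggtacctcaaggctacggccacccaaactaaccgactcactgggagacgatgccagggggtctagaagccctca
Gzmb: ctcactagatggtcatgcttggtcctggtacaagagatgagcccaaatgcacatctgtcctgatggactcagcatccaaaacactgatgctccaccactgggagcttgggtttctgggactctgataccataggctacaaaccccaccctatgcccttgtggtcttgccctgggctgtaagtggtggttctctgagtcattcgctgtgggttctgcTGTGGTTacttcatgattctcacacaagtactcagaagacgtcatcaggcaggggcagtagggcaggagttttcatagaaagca
Il7r: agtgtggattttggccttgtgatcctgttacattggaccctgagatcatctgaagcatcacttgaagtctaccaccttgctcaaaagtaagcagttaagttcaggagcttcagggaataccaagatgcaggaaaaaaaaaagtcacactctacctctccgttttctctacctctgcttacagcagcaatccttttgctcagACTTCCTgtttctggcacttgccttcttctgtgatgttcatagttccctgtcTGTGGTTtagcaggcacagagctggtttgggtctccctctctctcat

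AGGAAGT begins 55 bases before the start of Cd79a, and on the opposite strand 49 bases before that of Il7r. TGTGGTT begins 34 bases before the start of Gzmb and 4 bases after that of Il7r. Over all members, AGGAAGT was found in 12 of 33 windows, beside 9.35% of all 32851 mouse windows of the same length, and TGTGGTT in 9 of 33, beside 5.27%. The 11 genes with AGGAAGT were Cd247, Cd3d, Cd3e, Cd5, Cd79a, Havcr2, Il2ra, Il7r, Lck, Prf1 and Tbx21. The 8 genes with TGTGGTT were Gzma, Gzmb, Havcr2, Il7r, Klrk1, Lck, Ncr1 and Tigit. The octamer ATGCAAAT, bound by OCT factors in B cell promoters, was in 0 of 33 member windows and in 1.74% of all windows. CCCNNGGG, letters that EBF factors can bind, was in 2 windows, those of Prf1 and Zap70, and in 13.7% of all. All 4 motifs were searched on both strands, and a match describes letters, not binding.

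Plasma cell genes were higher in castrated tumors. Jchain encodes the joining chain that links antibodies into dimers and pentamers, and it had the highest TPM of all members, with a mean of 701 over the 5 samples. Its CPM was 319, 1517 and 1225 in castrated mice 1, 2 and 3, and 56.2 and 18.7 in intact mice 1 and 2. The lowest castrated sample was thus 5.67 times the highest intact sample, and the groups did not overlap. The log2 fold change of Jchain was 4.77 with a standard error (SE) of 0.97 (adjusted p = 0.289, edgeR's quasi-likelihood test, Benjamini-Hochberg adjusted). Mzb1 encodes a chaperone of the endoplasmic reticulum that assists antibody assembly in B and plasma cells. Its CPM was 1.05, 7.35 and 6.48 in castrated samples and 0.269 and 0.093 in intact samples, where it rested on 6 and 2 counts. Castrated mouse 1 was the lowest of its group for Mzb1 and was still 3.89 times intact mouse 1. The log2 fold change was 4.72 (SE 1.18, adjusted p = 0.290, edgeR's quasi-likelihood test, Benjamini-Hochberg adjusted).

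B cell genes were higher in castrated tumors too. Cd79a, at chr7:24897497-24901858, had a CPM of 2.90, 19.7 and 22.8 in castrated mice 1, 2 and 3, and of 0.538 and 0.976 in intact mice 1 and 2. Its partner Cd79b had 3.73, 15.5 and 16.8 in castrated samples, and 0.358 and 1.02 in intact samples. Ms4a1, which encodes the B cell surface protein CD20, had 1.81, 18.6 and 19.3 in castrated samples, and 0.0896 and 1.02 in intact samples. For each of these genes castrated mice 2 and 3 were close together and far above castrated mouse 1, which itself was above both intact samples. The margin between the lowest castrated and the highest intact sample was 2.97 times for Cd79a, 3.65 times for Cd79b and 1.77 times for Ms4a1. The log2 fold changes were 4.31 (SE 1.07) for Cd79a, 4.11 (SE 0.94) for Cd79b and 4.56 (SE 1.48) for Ms4a1, and their adjusted p-values were 0.290, 0.289 and 0.302 (edgeR's quasi-likelihood test, Benjamini-Hochberg adjusted). Intact levels rested on few counts, 12 and 21 for Cd79a, 8 and 22 for Cd79b, and 2 and 22 for Ms4a1. The span of Ms4a1 is shared with a transcript on the opposite strand, 4930526L06Rik, and whether counting used strand is not stated.

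These 5 were the members with an unadjusted p under 0.05 and a log2 fold change above 1 (edgeR's quasi-likelihood test), out of 33 members that passed the filter on low counts, beside 7.66% of all tested genes. Of the 5, Jchain alone passed with limma voom, Cd79a and Ms4a1 did not pass without intact mouse 1, and Ms4a1 did not pass without castrated mouse 2 or without castrated mouse 3. In the other direction 0 of 33 members passed, beside 3.26% of all tested genes.

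**Figure D1:**
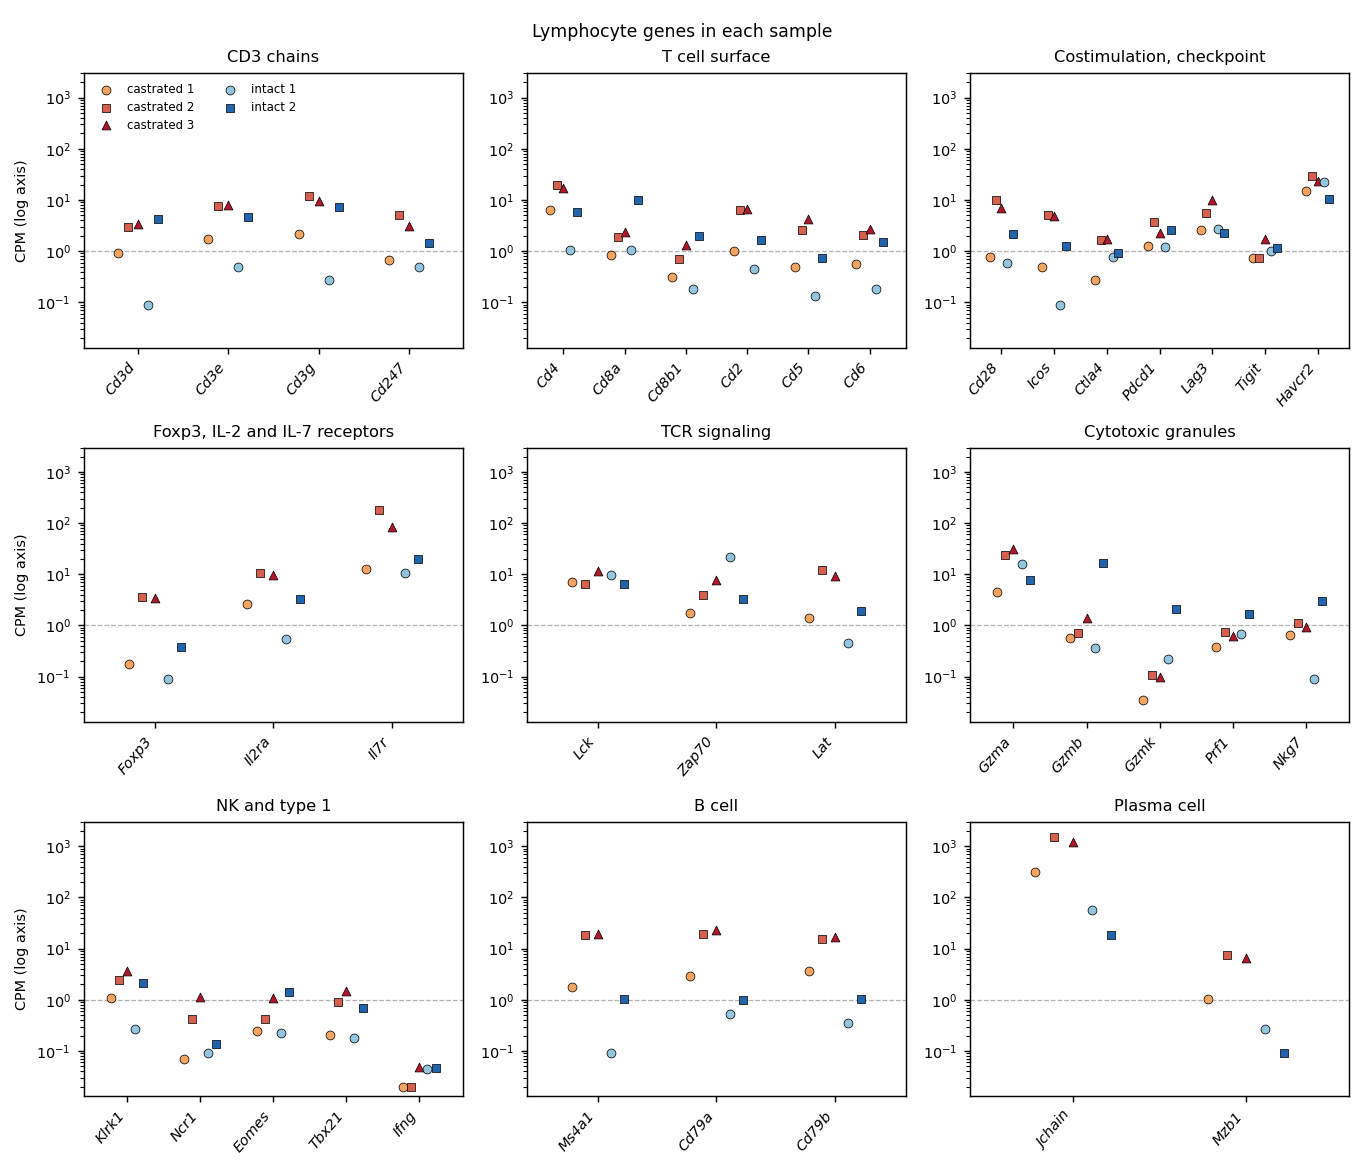
CPM (vertical log axis) of the 38 lymphocyte genes in panels by role, with 1 point for each of the 3 castrated and 2 intact samples, the dashed line at a CPM of 1 and counts of 0 (Ifng) drawn just above the bottom edge. Both intact points of Ms4a1, Cd79a, Cd79b, Jchain and Mzb1 lie below all castrated points, whereas intact mouse 2 is the highest point for Cd8a, Gzmb and Gzmk.

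Other genes of the B lineage, 19 in number, were examined beside the members. Of these, 18 were higher and 1 lower in castrated samples, with a median log2 fold change of 3.71, or 3.37 with the genes at 0 in both intact samples (Cr2 and Tnfrsf17, named for that reason) set at their bound. For 12 of the 19 the unadjusted p was under 0.05 with a log2 fold change above 1 (edgeR's quasi-likelihood test), beside the 7.66% of all tested genes, and 0 passed after adjustment. The 3 with the highest TPM are described first. Blnk, an adaptor protein downstream of the receptor, had a CPM of 120, 127 and 112 in castrated samples and of 46.7 and 122 in intact samples, so that the groups overlapped. Cd72, a surface inhibitor of receptor signaling, had 12.9, 25.3 and 16.4 in castrated samples and 1.70 and 6.14 in intact samples. Prdm1, a transcription factor of plasma cell differentiation that other cells also use, was the gene that was lower, with 14.8, 22.7 and 17.7 in castrated samples and 31.3 and 36.3 in intact samples. Thus Prdm1 and the antibody assembly genes Jchain and Mzb1 had opposite orders of the groups. Pax5, the transcription factor that defines B cells and was picked after its values were seen, had 17, 77 and 172 counts in castrated samples, against 2 and 5 in intact samples.

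The CD3 chains of the T cell receptor overlapped between the groups. Cd3e had a CPM of 1.74, 7.56 and 7.99 in castrated mice 1, 2 and 3, and of 0.493 and 4.65 in intact mice 1 and 2. Cd3g had 2.13, 11.7 and 9.55 in castrated samples and 0.269 and 7.30 in intact samples. Cd3d had 0.907, 2.95 and 3.36 in castrated samples and 0.0896 and 4.23 in intact samples, where its 2 counts in intact mouse 1 were under the floor. In all 3 genes intact mouse 1 was the lowest, castrated mouse 1 came next, and intact mouse 2 lay near castrated mice 2 and 3. Cd247, the ζ chain, had 0.663, 5.15 and 3.12 in castrated samples and 0.493 and 1.44 in intact samples, and intact mouse 2 was again above castrated mouse 1 and below the other castrated mice. The log2 fold changes of Cd3d, Cd3e, Cd3g and Cd247 were 0.15, 1.16, 1.04 and 1.61, with a median of 1.10. Each interval of 1 SE around Cd3d and Cd3g held 0. These values rested on the intact samples, since Cd3d had a log2 fold change of 4.61 without intact mouse 2 and of -0.80 without intact mouse 1. Cd3d, Cd3e and Cd3g are neighbours on chromosome 9, where the starts of Cd3g and Cd3d are 1355 bases apart.

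The coreceptors of helper and killer T cells differed in opposite directions. Cd4 had a CPM of 6.25, 19.7 and 17.0 in castrated mice 1, 2 and 3, and of 1.03 and 5.90 in intact mice 1 and 2. Its groups did not overlap, by a margin of 1.06 times, and its log2 fold change was 2.04 (SE 0.91, adjusted p = 0.361, edgeR's quasi-likelihood test, Benjamini-Hochberg adjusted). Some tissue macrophages carry CD4 too, and every macrophage gene examined was higher in castrated samples, as given further on. Cd8a had 0.837, 1.93 and 2.39 in castrated samples and 1.03 and 10.2 in intact samples. The log2 fold change of Cd8a was -1.71 (SE 0.99, adjusted p = 0.456, edgeR's quasi-likelihood test, Benjamini-Hochberg adjusted), and it was 0.68 without intact mouse 2. Cd8b1, the partner chain of Cd8a, had 0.314, 0.697 and 1.32 in castrated samples and 0.179 and 1.95 in intact samples, so that intact mouse 2 was the highest for both chains. Cd2, Cd5 and Cd6, surface proteins that tune T cell adhesion and activation, were higher in castrated samples with log2 fold changes of 2.19, 2.44 and 1.06. For each of them castrated mouse 3 was the highest, intact mouse 1 the lowest, and the groups overlapped.

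Genes of regulatory T cells and of the cytokine receptors of T cells had high values in castrated mice 2 and 3. Foxp3, the transcription factor of regulatory T cells, had a CPM of 0.174, 3.65 and 3.51 in castrated mice 1, 2 and 3, and of 0.0896 and 0.372 in intact mice 1 and 2. Castrated mouse 1 fell between the intact samples. The log2 fold change was 3.37 (SE 1.48, adjusted p = 0.359, edgeR's quasi-likelihood test, Benjamini-Hochberg adjusted). The span of Foxp3 overlaps those of Flicr on the same strand and Ccdc22 on the other. Il2ra, the IL-2 receptor α chain of regulatory and activated T cells, had 2.58, 10.7 and 9.55 in castrated samples and 0.538 and 3.25 in intact samples, a log2 fold change of 1.999. Il7r, the receptor of the lymphocyte survival factor IL-7, had 12.9, 177 and 85.5 in castrated samples and 10.4 and 19.6 in intact samples. The TPM of Il7r was between 1.91 and 10.6 times that of Cd3e across the samples, so it was not in proportion to Cd3e. By TPM, Il7r was next to Jchain among the members, at a mean of 44.4. Its log2 fold change was 2.61 (SE 1.09, adjusted p = 0.347, edgeR's quasi-likelihood test, Benjamini-Hochberg adjusted). Castrated mouse 1 was below intact mouse 2 in all 3 genes of this group.

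Costimulatory and checkpoint receptors were split between these patterns. Cd28, which gives the second signal for T cell activation, had a CPM of 0.768, 9.87 and 6.82 in castrated mice 1, 2 and 3, and of 0.583 and 2.18 in intact mice 1 and 2. Icos, an inducible relative of Cd28, had 0.489, 5.04 and 4.97 in castrated samples and 0.0896 and 1.25 in intact samples. Both followed the order of the CD3 chains, with log2 fold changes of 2.06 and 2.37. The inhibitory receptors were nearer to equal between the groups. Ctla4, Pdcd1 and Tigit had log2 fold changes of 0.50, 0.32 and -0.02, each smaller than its SE. Lag3, an inhibitory receptor that binds MHC class II, had 2.58, 5.52 and 10.1 in castrated samples and 2.69 and 2.23 in intact samples, a log2 fold change of 1.30 (SE 0.66). Havcr2, which encodes TIM-3 and is made by myeloid cells as well as T cells, had 15.1, 29.8 and 23.8 in castrated samples and 22.1 and 10.4 in intact samples. Unlike Cd3e, Havcr2 was higher in intact mouse 1 than in intact mouse 2.

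Of the kinases and adaptor that carry the T cell receptor signal, Lat alone followed the CD3 chains. Lat, a membrane adaptor, had a CPM of 1.43, 12.1 and 9.06 in castrated mice 1, 2 and 3, and of 0.448 and 1.95 in intact mice 1 and 2, a log2 fold change of 2.64 (SE 1.14). Zap70, the kinase that binds the phosphorylated ζ chain, had 1.74, 4.02 and 7.60 in castrated samples and 21.5 and 3.35 in intact samples. Intact mouse 1, the sample with the lowest CD3 values, thus had the highest Zap70. Its log2 fold change was -1.48 (SE 0.93), and without intact mouse 1 it was 0.43. Lck, the kinase tied to the CD4 and CD8 proteins, had 7.08, 6.60 and 11.4 in castrated samples and 9.77 and 6.41 in intact samples. The values of Lck overlapped between the groups, with a log2 fold change of 0.05 (SE 0.41).

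Cytotoxic granule genes were highest in intact mouse 2, except Gzma. Gzmb encodes granzyme B, a protease that starts cell death in target cells. Its CPM was 0.558, 0.697 and 1.41 in castrated mice 1, 2 and 3, and 0.358 and 16.7 in intact mice 1 and 2, from 16, 13, 29, 8 and 360 counts. The intact samples were thus the lowest and the highest of all. The log2 fold change of -3.26 (SE 1.38, adjusted p = 0.351, edgeR's quasi-likelihood test, Benjamini-Hochberg adjusted) rested on intact mouse 2. Without that sample, or without castrated mouse 3, Gzmb did not pass the filter. Gzmk, a granzyme of memory T cells, had 1, 2 and 2 counts in castrated samples, against 5 and 46 in intact samples, and was below the filter. Prf1, the pore-forming perforin, had 11, 14 and 13 counts in castrated samples, against 15 and 36 in intact samples, and was below the filter too. Nkg7, a granule membrane protein, had 19, 21 and 19 counts in castrated samples, against 2 and 65 in intact samples. Gzma, granzyme A, had a different order, with a CPM of 4.50, 23.4 and 31.9 in castrated samples and 16.0 and 7.62 in intact samples, and a log2 fold change of 0.76 (SE 0.84).

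NK cell and type 1 lymphocyte genes were at the lower end of the range of levels. Klrk1, the activating receptor NKG2D, had 31, 46 and 75 counts in castrated mice 1, 2 and 3, and 6 and 45 in intact mice 1 and 2. Ncr1, the receptor that most narrowly marks NK cells, had 2, 8 and 23 counts in castrated samples, against 2 and 3 in intact samples. Ncr1 was therefore at or under the floor of 3 counts in 3 of the 5 samples and did not pass the filter. The transcription factors Eomes and Tbx21 of NK and killer T cells had at most 31 and 30 counts in any sample. Ifng, the cytokine of type 1 responses, had 0, 0 and 1 counts in castrated samples, against 1 in each intact sample, all below the floor, so that its expression was not detectable at this depth. Among 15 further NK cell and granzyme genes, 8 were tested, with 3 higher and 5 lower in castrated samples, with a median log2 fold change of -0.80. The one that was lower at an unadjusted p under 0.05, beside 3.26% of all tested genes (adjusted p = 0.316, edgeR's quasi-likelihood test, Benjamini-Hochberg adjusted) was Gzmc, a granzyme gene near Gzmb with a log2 fold change of -2.39 (SE 0.85). Its CPM was 2.79, 2.84 and 1.51 in castrated samples and 2.96 and 22.1 in intact samples, so that intact mouse 2 again stood apart. Gzmd and Gzmf, named after their values were seen, also did not overlap, with 37, 3 and 0 against 74 and 69 counts, and 35, 0 and 0 against 99 and 130 counts. With Gzmc, 3 of the 8 were lower without overlap, beside 16.1% of all tested genes. Gzme, of the same list, overlapped and was highest in castrated mouse 1, with 42, 1 and 0 against 23 and 26 counts. These granzyme genes are near copies of each other, and how the counting shared their reads is uncertain. The chemokine Ccl5 and the receptor Cd244a, the others of this list with the highest TPM, overlapped between the groups, with log2 fold changes of 0.38 and 0.02.

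**Figure D2:**
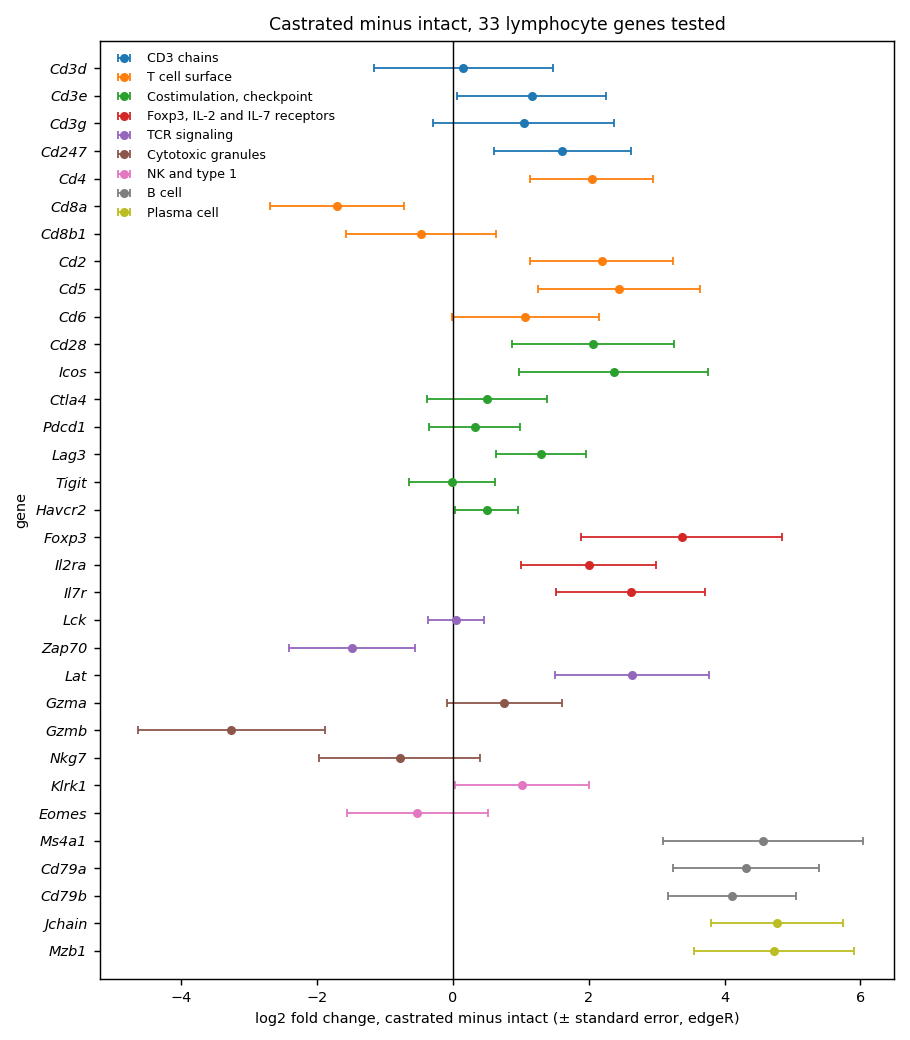
Log2 fold change of castrated against intact samples for the 33 lymphocyte genes that passed the filter, with bars of 1 SE from edgeR and colors for the role of each gene. The 5 B cell and plasma cell genes lie between 4.11 and 4.77, T cell genes spread around a lower center, and Gzmb is the lowest at -3.26.

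Over the 33 members tested, 26 were higher and 7 lower in castrated samples, with a median log2 fold change of 1.16, beside 6992 higher and 7620 lower and a median of -0.03 over all 14612 genes tested. With the 5 B cell and plasma cell genes left out, 21 were higher and 7 lower, and the median was 1.03. In 6 members, the 5 B cell and plasma cell genes and Cd4, every castrated sample was above both intact samples, beside 17.0% of all tested genes. Every castrated sample was below both intact samples in 0 tested members, beside 16.1% of all tested genes, and in Gzmk, which was not tested. The role groups ranged in median log2 fold change from 4.74 for plasma cell and 4.31 for B cell genes, through 2.61 for Foxp3 and the cytokine receptors, 1.55 for T cell surface genes and 0.50 for costimulatory and checkpoint receptors, to 0.05 for receptor signaling and -0.78 for cytotoxic granule genes. Other T cell genes that were examined gave a similar picture to the CD3 chains, as 13 of 15 tested were higher with a median of 1.03. Among the most abundant of these, Ikzf3, a transcription factor of lymphocytes, had a CPM of 2.83, 11.3 and 13.8 in castrated samples and of 0.762 and 21.8 in intact samples. Cxcr6, a chemokine receptor of tissue T cells, was likewise lowest in intact mouse 1, at 1.30.

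Samples within a group differed widely. Of the 33 members tested, 23 were lowest in intact mouse 1 and 5 in castrated mouse 1. In castrated mouse 2 13 were highest, in castrated mouse 3 13 and in intact mouse 2 6. Over all tested genes, intact mouse 1 was the lowest sample for 26.2% and castrated mouse 1 for 13.0%, whereas castrated mouse 2 was the highest for 15.5%, castrated mouse 3 for 17.2% and intact mouse 2 for 31.3%. Castrated mouse 1 was the highest sample for 0 members, beside 15.2% of all tested genes. The single member that was highest in intact mouse 1 was Zap70. Leaving out one sample at a time moved the median of the members between 0.88 and 3.34, and the highest value came without intact mouse 2. B cell genes had medians between 3.71 and 5.001 in these fits and plasma cell genes between 4.13 and 5.73. The CD3 chains had medians between 0.22 and 4.05.

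**Figure D3:**
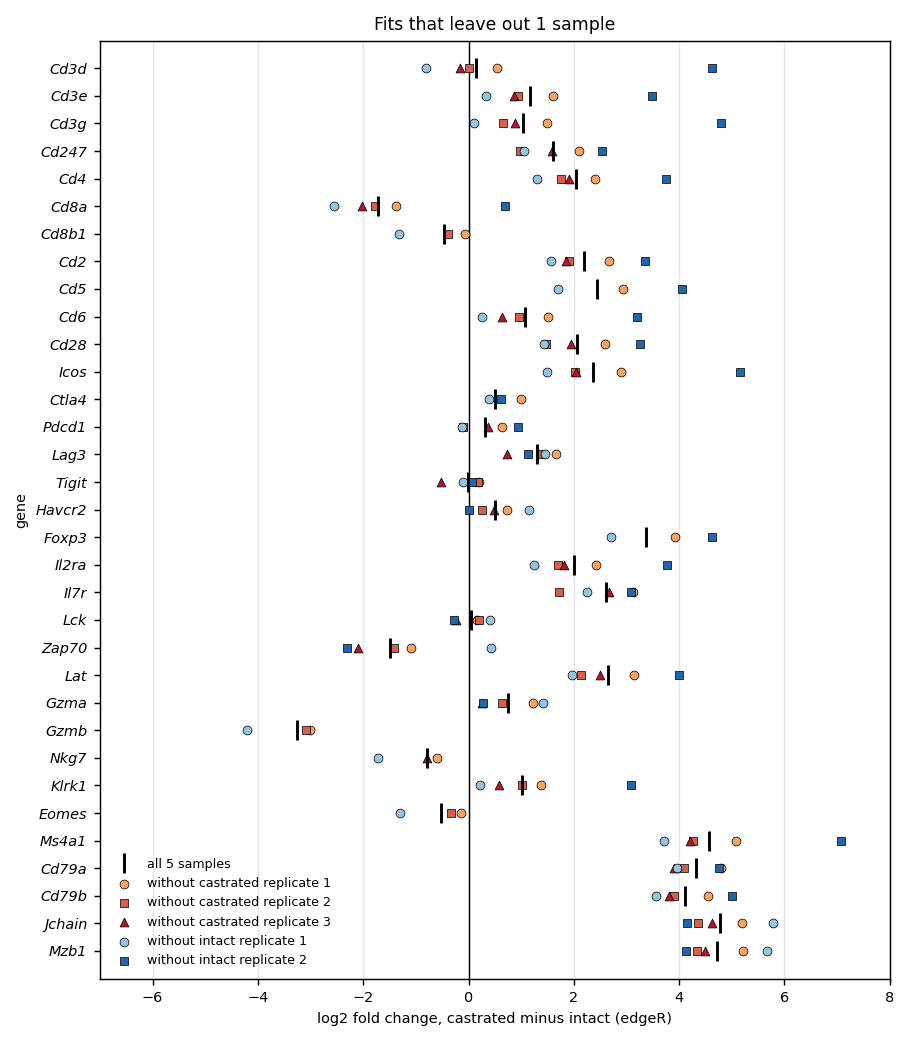
Log2 fold change of each tested lymphocyte gene in the fit to all 5 samples (black bars) and in fits that leave out 1 sample (points), where a missing point means that the gene did not pass the filter. Points of B cell and plasma cell genes stay above 3, and those of Cd3d, Cd8a and Zap70 fall on both sides of 0.

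Ratios between members within a sample are free of any factor that scales all lymphocyte genes alike, and are given as a description. The ratio of Cd4 to Cd8a in TPM was 7.58, 10.4 and 7.24 in castrated mice 1, 2 and 3, and 1.02 and 0.589 in intact mice 1 and 2. Castrated mouse 1, which had the lowest CD3 values of its group, was thus with its group in this ratio. Cd79a to Cd3e, a ratio of B cell to T cell signaling chains, was 2.41, 3.78 and 4.16 in castrated samples and 1.59 and 0.305 in intact samples. Gzmb to Cd3e was 0.308, 0.0887 and 0.170 in castrated samples and 0.699 and 3.46 in intact samples. In these 3 ratios the groups did not overlap, whereas in all others computed they overlapped. Jchain to Cd79a was 52.3, 36.6 and 25.5 in castrated samples and 49.7 and 9.12 in intact samples. Il7r to Cd3e was 3.34, 10.6 and 4.84 in castrated samples and 9.59 and 1.91 in intact samples. Havcr2 to the macrophage gene Csf1r was 0.167, 0.114 and 0.143 in castrated samples and 0.428 and 0.159 in intact samples. No share over all gene pairs was computed. Foxp3 to Cd3e did not follow the groups, with 0.037, 0.179 and 0.163 in castrated samples and 0.0673 and 0.0296 in intact samples. Zap70 to Cd3e was 23.4 in intact mouse 1 and between 0.285 and 0.535 in the other samples. Lck to Cd3e was 12.6 in intact mouse 1 and at most 2.57 elsewhere. Gzma to Cd3e was likewise 53.5 in intact mouse 1, beside 2.71 to 6.61 elsewhere, so Zap70, Lck and Gzma were all out of proportion to Cd3e in that sample. Cd3e in intact mouse 1 rested on 11 counts.

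**Figure D4:**
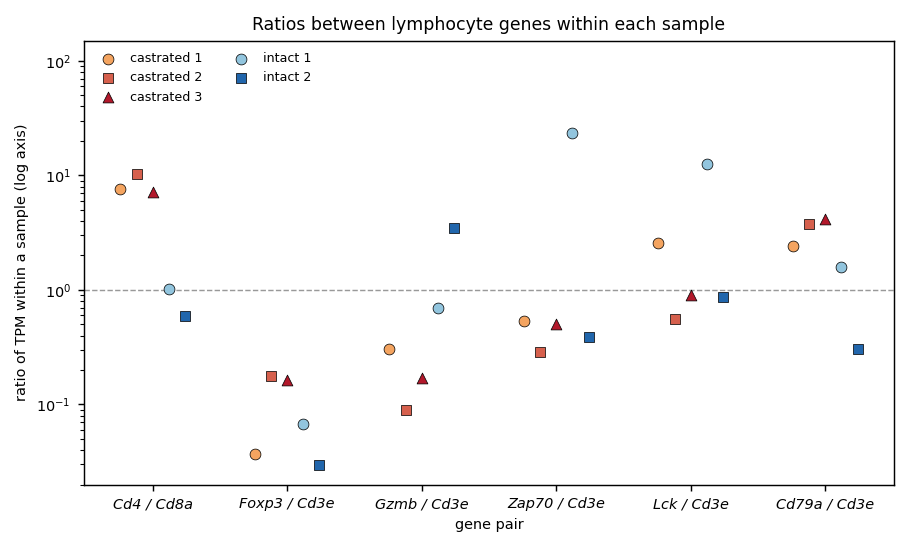
Ratio of TPM between pairs of lymphocyte genes within each of the 5 samples, on a log axis, with a dashed line at equal TPM. Cd4 to Cd8a is between 7.24 and 10.4 in the castrated samples and 0.589 and 1.02 in the intact samples, and intact mouse 1 stands apart for Zap70 and Lck.

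The genes that rearrange antigen receptors were examined because of the SCID background. Prkdc, the DNA-dependent kinase gene that the SCID allele alters, had a CPM of 28.3, 15.4 and 24.8 in castrated mice 1, 2 and 3, and of 27.0 and 41.6 in intact mice 1 and 2. The mRNA level does not show which allele a mouse carried, and the groups overlapped (log2 fold change -0.59, SE 0.36). Rag1, a subunit of the recombinase of developing lymphocytes, had 0 counts in all castrated samples and 1 and 12 counts in intact samples, and its partner Rag2 had 0 in all 5. Xrcc4, Xrcc5 and Xrcc6, repair genes of all cells, had log2 fold changes of 0.05, -0.13 and -0.41. Whether the genotype of Prkdc moved with the lymphocyte genes was not tested.

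Genes of other immune cells and tissues also differed between the samples. Ptprc, which encodes the leukocyte protein CD45, had a CPM of 59.4, 220 and 149 in castrated mice 1, 2 and 3, and of 27.4 and 60.6 in intact mice 1 and 2. All 8 pan-leukocyte genes had a higher mean in castrated samples, with a median log2 fold change of 1.62 and Laptm5 as the most abundant. All 10 macrophage genes were above both intact samples in every castrated sample, beside 17.0% of all tested genes, with a median of 1.40. Relative to the CPM of Ptprc, the summed CPM of the B cell genes was 0.142, 0.245 and 0.396 in castrated samples and 0.036 and 0.0499 in intact samples. The same ratio for the plasma cell genes was 5.38, 6.94 and 8.27 in castrated samples and 2.06 and 0.311 in intact samples. For the CD3 chains it was 0.0916, 0.125 and 0.161 in castrated samples and 0.0491 and 0.291 in intact samples. The 19 other B lineage genes had a ratio of 3.21, 1.52 and 2.20 in castrated samples and 3.24 and 3.18 in intact samples. Their most abundant gene, Blnk, had a CPM of 120, 127 and 112 within sums of 191, 334 and 327 in castrated samples. In intact samples it had 46.7 and 122 within sums of 88.8 and 193. Per unit of Ptprc the B cell and plasma cell members were thus higher in every castrated sample, and the CD3 chains overlapped. The other B lineage sum was not higher, although 18 of those 19 genes were higher in castrated samples before the division. Ptprc and the division by it were picked after the values had been seen.

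Markers of lymph node stroma and of fat also differed. Among 7 lymph node stroma genes, 4 passed the filter, and all 4 had a higher mean in castrated samples, with a median log2 fold change of 3.50. Ccl21a, the chemokine that draws T cells into lymph nodes, had a CPM of 58.8, 51.8 and 107 in castrated mice 1, 2 and 3, and of 0.0896 and 7.16 in intact mice 1 and 2. Its listed span runs from position 120655 to 42773991 of chromosome 4, for a gene length of 0.864 kb. Which locus its reads came from is therefore uncertain. Cxcl13, the chemokine of B cell follicles, had 9.35, 52.9 and 59.4 in castrated samples and 17.0 and 13.9 in intact samples. Glycam1, a ligand made by the high endothelial venules of lymph nodes and picked after its values were seen, had 16, 406 and 53 counts in castrated samples, against 0 and 6 in intact samples. The most abundant gene of that list, Mfge8, is also made by epithelial and myeloid cells. The 11 adipocyte genes had a summed CPM of 138, 1322 and 1290 in castrated samples and of 137 and 159 in intact samples, with Fabp4 as the most abundant. Their median log2 fold change was 8.80, or 8.27 with genes at 0 in both intact samples at their bound. Castrated mice 2 and 3, the samples with the highest adipocyte sums, were also those with the highest B cell genes. In castrated mouse 1 the sum lay between those of the intact samples, but the mean log2 CPM of the same genes was above both, at 0.91 from the intact mean, beside -0.26 and 0.26 in the intact samples. The 7 smooth muscle genes were all above both intact samples in every castrated sample, beside 17.0% of all tested genes, with a median log2 fold change of 2.88. Epithelial genes had a median of -0.25, with Krt18 at 851, 629 and 876 in castrated samples and 1110 and 779 in intact samples, so the epithelial markers of the labelled tissue were high in all 5. The part that these tissues had in the lymphocyte values was not tested.

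**Figure D5:**
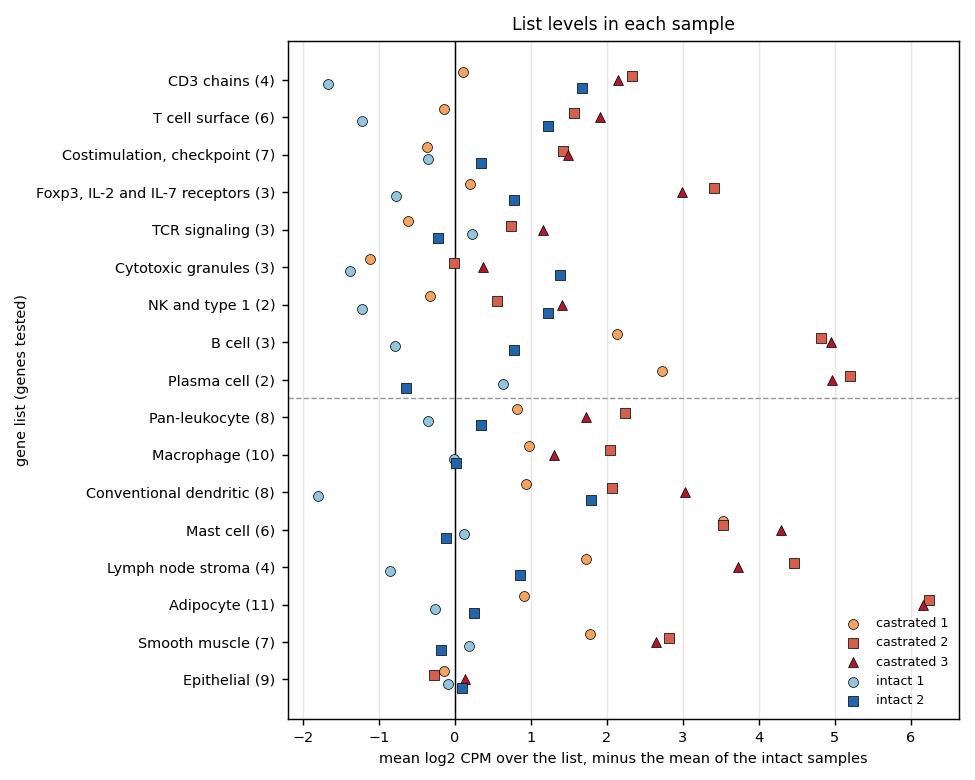
Mean log2 CPM of the tested genes of each list in each of the 5 samples, minus the mean of the intact samples, with lymphocyte groups above the dashed line and other cell types below it. All 3 castrated samples lie to the right of both intact samples for B cell, plasma cell, pan-leukocyte, macrophage and lymph node stroma genes. The same holds for mast cell, adipocyte and smooth muscle genes. For conventional dendritic cell genes castrated mouse 1 lies to the left of intact mouse 2. Intact mouse 2 lies among the castrated samples for the CD3 chains.

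Of 8 dendritic cell genes tested, 7 were higher in castrated samples, with a median log2 fold change of 1.24. Xcr1, a receptor of the dendritic cells that present antigen to CD8 cells and picked after its values were seen, had a CPM of 1.15, 3.16 and 9.16 in castrated mice 1, 2 and 3, and of 0 and 1.39 in intact mice 1 and 2. Cd209a had 8.58, 11.96 and 20.2 in castrated samples and 0 and 2.42 in intact samples. Dpp4, the most abundant gene of this list, which T cells and epithelium also make, had 387 in intact mouse 2 and at most 58.6 in any other sample. Siglech, a marker of plasmacytoid dendritic cells, had 0.279, 5.68 and 4.77 in castrated samples and 0.0448 and 1.12 in intact samples. Castrated mouse 1 was below intact mouse 2 for Xcr1 and Siglech, as it was for Foxp3 and Cd3e.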

How the data were processed

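Libraries were depleted of ribosomal RNA and sequenced from both ends. The authors used Trimmomatic 0.39 for trimming, STAR 2.7.9 for alignment to mm10 and HTSeq 2.0.2 for read counts per gene, as named in the methods and the submitters' processing notes. The deposited values were raw counts for 24527 genes, with a gene length in kilobases beside them (unit other) that was used for TPM. The annotation and the strand setting are not given in the sources used here.

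The tools were edgeR 4.0.16, DESeq2 1.42.0 and limma 3.58.1 under R 4.3.3. Genes that reached a CPM above 1 in 2 or more samples were tested with edgeR's quasi-likelihood test and TMM normalization, with Benjamini-Hochberg adjustment over all 14612 genes, after the methods of the study. The methods name TPM as the input. Counts were used instead, and TPM was an alternative. A gene was called at an adjusted p under 0.05 and a log2 fold change above 1 or below -1. The common dispersion between samples was 0.238. TMM factors were 1.02, 0.985, 1.01, 1.04 and 0.944 for castrated mice 1 to 3 and intact mice 1 and 2. No library was held more than once, as the chi-square per gene was 140 or more between samples of a group.

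The lymphocyte genes, the other gene lists and their tests were chosen with earlier results of these data known. All lymphocyte genes are named, and from every other list the 3 genes with the highest mean TPM were eligible, with Prkdc, Rag1 and Rag2. Some genes that the rule covers are not reported here. Genes marked as picked after their values were seen fall outside this rule. The DNA motifs were also chosen after values were seen. Alternatives were other scalings, filters and tests, TPM as input, a replicate block and leaving out each sample. The older quasi-likelihood fit of edgeR was added after seeing the data. Replicates were separate mice. The procedure was tested on simulated data, drawn for each gene on its own with the spread between these mice. A log2 fold change of 4 was called in 35 of 47 genes and one of 3 in 17 of 47. One of 2 was called in 5 of 50 and one of 1 in 0 of 50. Of the unchanged genes 3 were called, where 14352 genes, changed and unchanged, were tested. Shifts that many genes share within a sample were not simulated, so these rates need not hold for the real samples. The single-cell and qRT-PCR experiments of the study were not analysed here.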

Additional observations from a re-analysis of the deposited data

How the results depend on the processing

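B cell and plasma cell genes kept their direction under every alternative run. Adjusted calls depended on the test. DESeq2 called 989 genes and 5 members (Jchain, Mzb1, Cd79a, Cd79b and Ms4a1), and the likelihood ratio test of edgeR called 369 genes and 4 members (the same without Ms4a1). At an unadjusted p, members higher in castrated samples numbered 12 with DESeq2 (1475 of all genes), 10 with the likelihood ratio test (1382), 1 with limma voom (716) and 9 with the replicate block (748), and 1 member was lower without a filter (Gzmk) and with DESeq2, the likelihood ratio test and TPM as input (Gzmb). Over all genes, 740 were lower without a filter, 596 with DESeq2, 577 with the likelihood ratio test and 535 with TPM as input. With the block 227 of all genes were lower. The median of the receptor signaling genes was -0.21 with the block, and that of the cytotoxic genes 0.28 with voom. Signs reversed for Cd8b1 (0.0605) and Nkg7 (0.62) with voom, for Tigit (0.012) with library size alone, and for Ctla4 (-0.21), Lck (-0.21), Gzma (-0.098) and Nkg7 (0.21) with the block. The cause of these changes was not tested. Same-numbered samples are different mice, and their deviations correlated at 0.149 for replicate 1 and -0.045 for replicate 2 across genes, so the numbers give no pairing.

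Leaving out each sample gave 0 to 1 adjusted calls over all genes and 0 among members. At an unadjusted p, 582 to 1588 genes and 3 to 13 members were higher, and 247 to 982 genes and 0 to 3 members lower. Medians ranged from 0.88 to 3.34 for all members, 0.22 to 4.05 for CD3 chains, 0.77 to 3.34 for T cell surface, 0.60 to 1.16 for checkpoint, 1.71 to 3.76 for Foxp3 and cytokine receptor, -0.27 to 0.43 for receptor signaling, -1.72 to 0.28 for cytotoxic, -0.54 to 3.08 for NK, 3.71 to 5.001 for B cell and 4.13 to 5.73 for plasma cell genes. Signs changed for Cd3d (-0.80 to 4.61), Cd8a (-2.55 to 0.68), Pdcd1 (-0.12 to 0.94), Tigit (-0.52 to 0.20), Lck (-0.27 to 0.40) and Zap70 (-2.32 to 0.43). The filter was applied anew each time, so some genes had fewer fits, and where 1 intact sample remained it was assumed to vary like the castrated samples. With 3 against 2 mice, members with few counts in intact samples have folds of wide error.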

Other observations

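All 6 mast cell genes were above both intact samples in every castrated sample, beside 17.0% of all tested genes. Each had an unadjusted p under 0.05 with a log2 fold change above 1 (edgeR's quasi-likelihood test), beside 7.66% of all tested genes, and the median log2 fold change was 4.21. Mcpt4, a chymase, had a CPM of 14.8, 22.3 and 49.4 in castrated mice 1, 2 and 3, and of 0.224 and 1.25 in intact mice 1 and 2. Cma1, another chymase, had 18.1, 19.8 and 41.7 against 1.17 and 1.25. Tpsb2, a tryptase, had 40.9, 27.8 and 49.99 against 5.29 and 2.28. Castrated mouse 1, the lowest of its group for all B cell and plasma cell genes, was close to castrated mouse 2 here. Neutrophil genes had a median log2 fold change of 0.63, endothelial genes of 0.83 and plasmacytoid dendritic cell genes of 1.41, and the groups did not overlap in 1 of 6, 3 of 6 and 1 of 4 genes tested, in that order, beside 17.0% of all tested genes that were higher and 16.1% that were lower without overlap.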
